A study of Mus musculus with 8 samples.

Results

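Isolated AAV-GFP-only regions are stretches of mouse liver chromatin that were called enriched for the histone mark H3K27-me3 in control livers, with no enriched region called nearby in livers that had received AAV-TBG-Cre. They were chosen by the measured peak calls themselves, as regions of the AAV-GFP list on chromosomes 1 to 19 that lay more than 5 kb from every region of the AAV-Cre list. This rule selected 2293 of 34307 AAV-GFP regions on these chromosomes, or 6.68% of them. The other AAV-GFP regions comprised 29621 that overlapped an AAV-Cre region and 2393 that did not overlap but had an AAV-Cre region within 5 kb. In the reverse direction, 27940 of 58951 autosomal AAV-Cre regions, or 47.4%, lay more than 5 kb from every AAV-GFP region.

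All livers came from male C57BL/6 mice that carried floxed JMJD3 alleles, so that the control mice were floxed too. Their substrain and breeding history are not given in the sources used here. At 8 weeks of age the mice were given either AAV-TBG-Cre, which lowers JMJD3 in the liver, or AAV-GFP as the control virus, and livers were taken 12 weeks later after 16 h of fasting. The TBG promoter is active in hepatocytes, so other cells of the liver keep an intact JMJD3 gene, and the deposited lists do not separate the cell types. ChIP-seq libraries for H3K27-me3 and for input DNA were made from 2 mice per virus, 8 libraries in all. Peaks found across both mice of a virus group were deposited as 1 list, which leaves no value per mouse, no spread between mice and no test between the groups. Whether a region of the AAV-GFP list that is missing from the AAV-Cre list differs in the mark, in depth or in the peak call cannot be told apart here. Peaks of the AAV-Cre list carry ranks up to 70465, and 11198 of these ranks, or 15.9%, are absent from it. Where the absent peaks lay is not known, and their part in the selection of isolated regions was not tested. The lists hold no read counts, so depth per library is unknown, and all intervals below are 95% intervals for counting error over regions only.

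H3K27-me3 is written by Polycomb repressive complex 2 and is associated with silent chromatin, above all at CpG-rich promoters of developmental regulators. JMJD3, the product of Kdm6b, is a demethylase that removes it, as does the related UTX. H3K27-me3 can also form broad, shallow domains over gene-poor, AT-rich chromatin, and narrow peak calling breaks such domains into pieces. The tissue label could not be checked by marker levels, because these are positions of a silencing mark. None of 8 hepatocyte genes (Alb, Apoa1, Apoa2, Ttr, Serpina1a, Fgb, Cps1 and Hnf4a) had an isolated region, or any region of either list, within 15 kb of a start site, a count of 0. Over all autosomal protein-coding genes, 43.1% had an AAV-Cre region and 2.19% an isolated region in this window. In a longer list of 49 hepatocyte genes, 4 (8.16%) had an AAV-Cre region there.

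The sequences below are shown because they span the kinds of region found. They are the 3 strongest isolated regions (the first 3 lines), a region at the start site of a vomeronasal receptor gene (Peak_7006) and the widest isolated region (Peak_9502). All are plus-strand RefSeq sequence of GRCm38.p6, which corresponds to mm10, with at most 300 bases around the summit. Capitals mark the 31 bases centred on the summit, the base with the highest signal in the peak call.
Peak_633 chr5:15591646-15591945: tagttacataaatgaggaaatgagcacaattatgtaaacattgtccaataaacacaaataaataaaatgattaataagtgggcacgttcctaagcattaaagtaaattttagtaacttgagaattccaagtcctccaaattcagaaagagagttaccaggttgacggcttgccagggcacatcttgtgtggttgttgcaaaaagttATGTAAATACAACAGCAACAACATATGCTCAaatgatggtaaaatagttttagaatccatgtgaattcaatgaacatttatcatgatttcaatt
Peak_844 chr11:34681825-34682015: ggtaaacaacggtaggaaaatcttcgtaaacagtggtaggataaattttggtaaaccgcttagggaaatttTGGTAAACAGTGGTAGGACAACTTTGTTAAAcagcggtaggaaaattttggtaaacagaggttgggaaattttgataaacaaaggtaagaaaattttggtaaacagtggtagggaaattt
Peak_1163 chr1:171077819-171077959: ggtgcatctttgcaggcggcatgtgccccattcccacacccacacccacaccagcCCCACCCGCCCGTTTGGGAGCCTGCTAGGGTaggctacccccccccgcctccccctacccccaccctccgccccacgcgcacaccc
Peak_7006 chr17:21255753-21256052: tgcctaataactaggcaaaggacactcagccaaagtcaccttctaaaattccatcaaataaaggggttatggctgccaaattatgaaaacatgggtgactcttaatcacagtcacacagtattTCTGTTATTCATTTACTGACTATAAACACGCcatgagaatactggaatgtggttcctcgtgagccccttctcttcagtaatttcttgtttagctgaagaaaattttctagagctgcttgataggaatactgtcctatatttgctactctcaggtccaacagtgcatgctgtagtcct
Peak_9502 chr13:12901779-12902078: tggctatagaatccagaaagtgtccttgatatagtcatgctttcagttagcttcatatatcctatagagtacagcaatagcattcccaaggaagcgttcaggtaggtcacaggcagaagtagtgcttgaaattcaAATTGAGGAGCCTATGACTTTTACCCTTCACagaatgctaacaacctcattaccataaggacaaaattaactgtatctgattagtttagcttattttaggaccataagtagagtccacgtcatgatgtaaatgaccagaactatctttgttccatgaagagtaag

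Peak_633, the strongest isolated region, had an enrichment of 6.53-fold over the local background and a −log10 p of 20.2, both from the authors' peak caller. It was 318 bp wide, had a GC content of 30.8% and lay 14295 bp from the start site of Gm21083, a predicted gene on chromosome 5. Peak_844 had a −log10 p of 18.1 and an enrichment of 4.93-fold, and lay in an intron of Dock2, which encodes an activator of Rac in leukocytes, 6464 bp from a start site. Its printed sequence is built of degenerate repeats: shifted by 48 bases against itself, 74.8% of its bases are identical, whereas the best shift between 10 and 60 bases gave 31.8% to 43.9% in the other printed sequences. Peak_1163, with a −log10 p of 15.8, had a GC content of 71.6% and lay 18416 bp from Fcgr3, a receptor for immunoglobulin G. Its 31 summit bases occur 3 times in the reference, those of Peak_633 and Peak_844 occur 1 time. At the other end of the scale, the most common pair of values among the isolated regions was an enrichment of 2.20-fold and a −log10 p of 2.45. It was found in 353 isolated regions, or 15.4%, against 3.43% of all autosomal AAV-GFP regions.

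Isolated regions were narrow. Their median width was 153 bp (interval 151 to 156, n = 2293), with quartiles of 127 and 187 bp and a range of 120 to 1445 bp, and together they covered 391 kb. The median was 160 bp for AAV-GFP regions within 5 kb of an AAV-Cre region, 258 bp for those that overlapped one, and 231 bp over all autosomal AAV-GFP regions. The shortest width in the AAV-GFP list, 120 bp, was found in 407 isolated regions, or 17.7%, against 5.16% of all autosomal AAV-GFP regions. Only 86 isolated regions, or 3.75%, reached 300 bp, against 37.1% of all. No AAV-Cre region was shorter than 300 bp, so widths were not compared between the lists. The part of this difference in shortest width in the selection was not tested.

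Most isolated regions were also weak. The median −log10 p was 2.91, against 3.16 in the regions within 5 kb, 4.21 in the overlapping regions and 3.90 over all autosomal AAV-GFP regions. A q-value of 0.05 or lower was reached by 331 isolated regions, or 14.4% (interval 13.1 to 15.9). This held for 14.0% of the regions within 5 kb and 46.8% of all. A −log10 p of at least 5 was reached by 192 isolated regions, or 8.37%, against 6.94% of those within 5 kb and 33.1% of all. The isolated share of the AAV-GFP list accordingly fell from 6.68% to 2.06% among regions with a q-value of 0.05 or lower, to 1.69% among those with a −log10 p of at least 5, and to 0.676% among those of at least 300 bp. When the AAV-GFP list was ranked by −log10 p and divided into 10 equal parts, 21 of the 3431 strongest regions (0.612%) and 479 of the 3430 weakest (14.0%) were isolated. The median enrichment was 2.34-fold, against 2.61-fold over all. Width and strength enter the peak call from which the regions were chosen, so these values are given as a description.

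**Figure D1:**
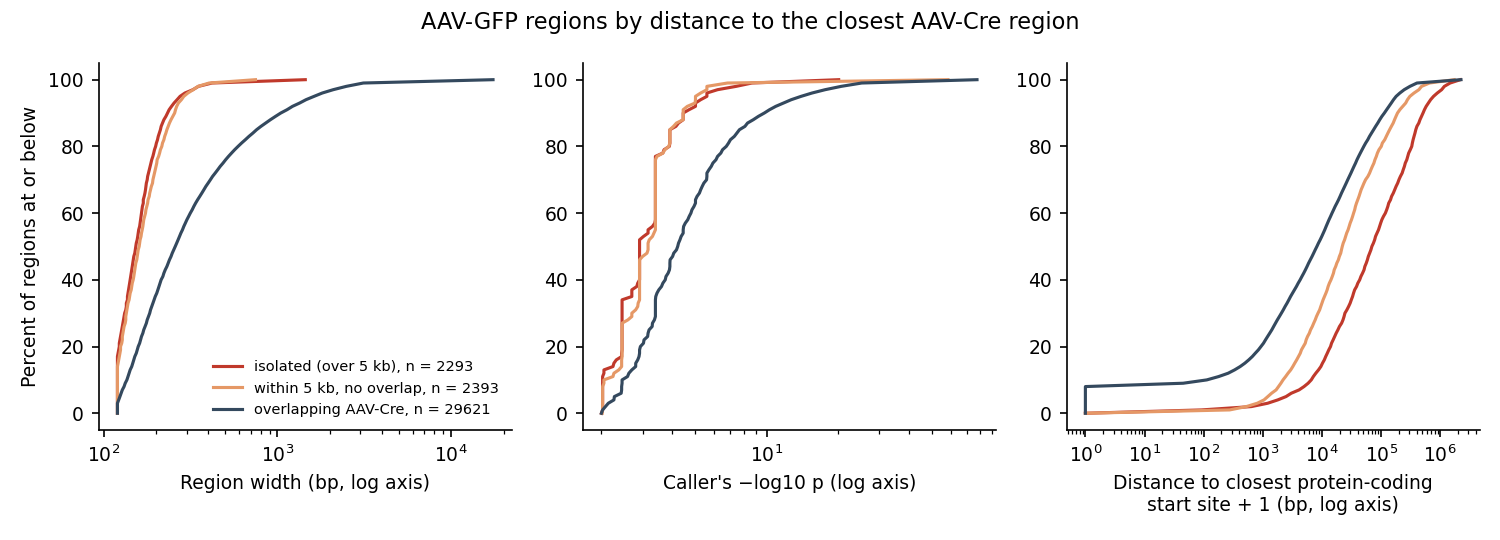
Percent of AAV-GFP regions (vertical axes) at or below a given width in bp, −log10 p and distance to the closest protein-coding start site, all on log axes, for the 2293 isolated regions, 2393 within 5 kb and 29621 overlapping an AAV-Cre region. The isolated and nearby regions follow almost the same curve for width and −log10 p, with medians of 153 and 160 bp and of 2.91 and 3.16, but not for distance to start sites, with medians of 69788 and 22053 bp.

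The peak caller's values repeated on a few steps. Of the isolated regions, 2101, or 91.6%, had a pair of fold and p-value that another isolated region also had, and the 6 commonest pairs held 1457, or 63.5%. Each of these 6 pairs held 5.06 to 15.4% of the isolated regions and 2.05 to 4.30% of all autosomal AAV-GFP regions. The share with a repeated pair was not counted over all regions. Fold and p-value together give the background that the caller set each region against, in fragments scaled to the input. In 1681 isolated regions, or 73.3%, this was the lowest value of the list, 4.73 fragments. The share was 68.6% in the nearby regions and 30.3% over all autosomal AAV-GFP regions. The implied signal at the summit had a median of 13.2 scaled fragments in isolated and in nearby regions, and 17.0 over all. A typical isolated region, like a typical nearby one, was therefore a summit of about 13.2 scaled fragments set against the list-wide background of 4.73. In 39 isolated regions, or 1.70%, the local background was more than 2 times the list-wide value, against 5.42% of all; the background could not be solved in 4 isolated regions and in 947 of all, and these are counted as not above it.

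The distance to the closest AAV-Cre region varied over a wide range. Its median was 86074 bp, with quartiles of 20344 and 317719 bp, and the largest was 2712064 bp. Of the isolated regions, 293 lay within 10 kb of an AAV-Cre region, 642 between 10 and 50 kb, 276 between 50 and 100 kb, 764 between 100 and 500 kb, 199 between 500 and 1000 kb, and 119 farther away. The 3 closest members lay 5025, 5026 and 5036 bp from an AAV-Cre region, and the 3 regions just outside the rule lay 4978, 4987 and 5000 bp away. The farthest, Peak_8989, was 165 bp wide on chromosome 7 (chr7:10013007-10013171), had an enrichment of 3.15-fold and lay 20750 bp from Vmn2r49, a vomeronasal receptor gene. Peak_29625 lay 10201 bp from the same gene, 2701515 bp from an AAV-Cre region. Peak_22592 on chromosome 5 was made up of repeat-masked bases alone (100%), and its summit bases occur 116 times in the reference. Peak_17476 (chr4:18410989-18411118) lay 557531 bp from Mmp16, a membrane-bound matrix metalloproteinase, and held no masked base.

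The base composition of isolated regions was closer to AT-rich sequence than that of other AAV-GFP regions. Their median GC content was 43.4% (interval 43.0 to 43.9), against 45.0% in the regions within 5 kb, 51.2% in the overlapping regions and 50.3% over all autosomal AAV-GFP regions. A GC content under 40% was found in 764, or 33.3%, against 10.1% of all, and one of at least 60% in 48, or 2.09%, against 13%. The CpG dinucleotide, the feature shared by classical Polycomb target promoters, was absent from 878 isolated regions, or 38.3%, against 12.5% of all. The AAV-Cre regions that were far from any AAV-GFP region had a median GC content of 50.7%. The sequence around the isolated regions was AT-rich as well: their flanks, 1 to 5 kb to either side, had a median GC content of 39.7%, against 45.6% over all autosomal AAV-GFP regions. Within their surroundings, 1536 isolated regions, or 67.0%, were richer in GC than their own flanks, against 73.7% of all.

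Isolated regions were split by whether other isolated regions lay close, chained over gaps of up to 10 kb. There were 1781 that stood alone (77.7%), 210 in 105 pairs, and 302 in 53 runs of 3 or more (13.2%). Chained among themselves in the same way, 71.2% of the nearby regions stood alone and 10.4% lay in runs of 3 or more. Over all autosomal AAV-GFP regions these shares were 14.0 and 75.8%. Those that stood alone had a median GC content of 45.0% and exceeded their flanks by a median of 4.39 percentage points. Those in runs had a median GC content of 35.8% and lay below their flanks, with a median difference of −1.52 percentage points (interval −2.06 to −0.843). The median difference was 1.49 in the nearby regions and 4.18 over all autosomal AAV-GFP regions. In median GC content the runs were thus unlike both the solitary isolated regions and the list as a whole. The flanks of a region in a run can hold other regions of that run. Its difference from the flanks is therefore not like for like with that of a solitary region.

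**Figure D2:**
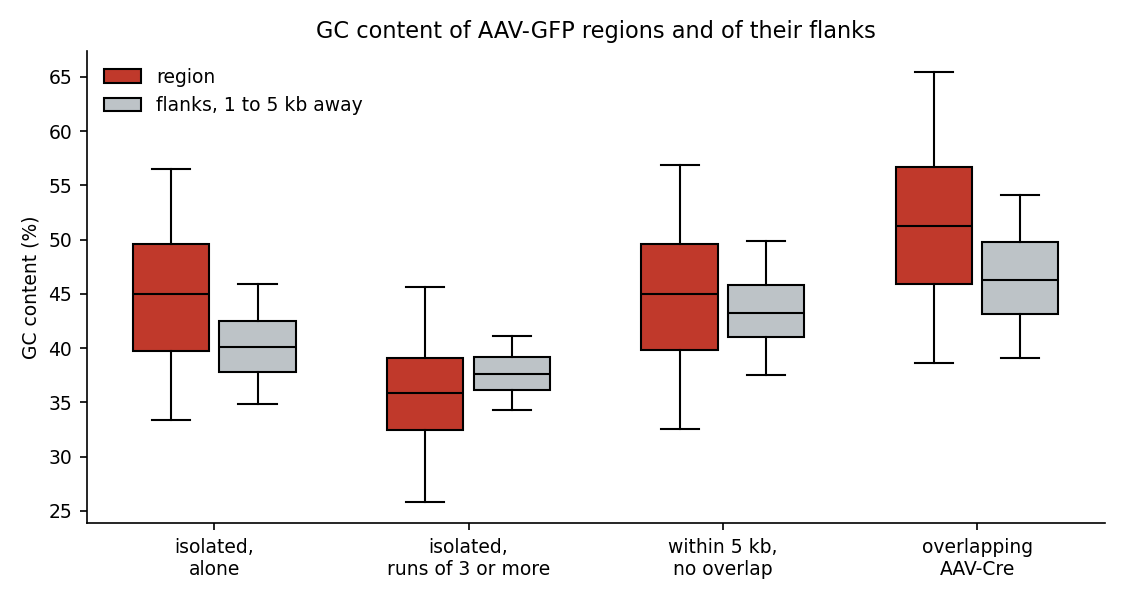
GC content in percent (vertical axis) of AAV-GFP regions and of their flanks 1 to 5 kb away, by class. Boxes span the quartiles with the median as a line, and whiskers the 5th to 95th percentile; of the 4 classes drawn, only the runs of isolated regions have a median below that of their flanks, 35.8 against 37.6%.

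Repeats and copy number also differed. Soft-masked repeats made up 27.2% of the bases of isolated regions, against 25.4% in nearby regions, 12.9% in overlapping regions and 13.7% over all. The masked share was thus close to that of the nearby regions. Masked bases alone made up 111 isolated regions, or 4.84%, against 3.72% of the nearby regions and 1.23% of all. The 31 summit bases occurred more than 1 time in the reference in 303 isolated regions, or 13.2% (interval 11.9 to 14.7), against 3.83% of all, and more than 10 times in 109, or 4.75%, against 1.64%. Whether reads over such bases can be placed on 1 copy depends on their length, which the lists do not give. The part of this in the calls was not tested. Perfect tandem repeats of at least 20 bases, with units of up to 6 bases, went the other way, being present in 43 isolated regions, or 1.88%, against 5.68% of all. Runs of at least 10 CA units were present in 13, or 0.567%, against 2.12%.

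Narrow regions hold fewer bases in which a CpG or a repeat can occur, so the classes were also set side by side among regions of at most 200 bp with a −log10 p under 3.5, a choice made after the data were seen. In this stratum the median GC content was 44.2% in 1476 isolated, 44.8% in 1383 nearby and 49.2% in 5836 overlapping regions. No CpG was present in 40.4, 28.7 and 20.7% of them, and the summit bases had several copies in 10.6, 5.50 and 2.96%. Soft-masked repeats made up 27.9, 23.6 and 16.9% of their bases. A protein-coding start site lay within 15 kb of 18.8, 39.4 and 49.7%. Perfect tandem repeats were present in 1.49% of the isolated, 2.96% of the nearby and 1.76% of the overlapping regions, and in 1.91% of all regions of the stratum. The isolated regions were thus much closer to the list as a whole than without the limits, where the shares were 1.88 and 5.68%. In GC content the isolated and nearby regions were close, while in CpG, copy number and distance to genes the isolated regions lay farther from the overlapping ones than the nearby regions did.

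Isolated regions lay far from genes. The median distance to the closest protein-coding start site was 69788 bp (interval 63713 to 77950), against 22053 bp in the nearby regions, 8207 bp in the overlapping regions and 10499 bp over all autosomal AAV-GFP regions. A start site lay within 1 kb of 58 isolated regions, or 2.53%, against 18.4% of all, and within 15 kb of 494, or 21.5%, against 56.3%. More than 500 kb separated 238 isolated regions, or 10.4%, from any protein-coding start site, against 1.31% of all. By position, 1598 isolated regions (69.7%) were intergenic, 591 (25.8%) intronic and 104 (4.54%) exonic, whereas 52.3, 29.6 and 18.1% of all autosomal AAV-GFP regions were. When start sites of every annotated gene were considered, the closest belonged to a pseudogene in 750 isolated regions, or 32.7%, against 12.1% of all, and to a protein-coding gene in 749, or 32.7%, against 57.1%. Immunoglobulin or T-cell receptor segments were closest to 23 isolated regions, of 24 such AAV-GFP regions in all.

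By chromosome, the density of isolated regions followed that of the list only loosely. Over chromosomes 1 to 19 there were 0.957 isolated regions per sequenced Mb, from 0.632 on chromosome 11 to 1.59 on chromosome 17. As a share of a chromosome's AAV-GFP regions they made up 2.76% on chromosome 11, the lowest, and 13.3% on chromosome 16, the highest. Chromosome 11 had 22.9 AAV-GFP regions per Mb and chromosome 16 had 7.82. Isolated regions that stood alone were more even, from 0.615 per Mb on chromosome 11 to 1.1 on chromosome 19. Within 100 kb of an assembly gap lay 90 isolated regions, or 3.92%, against 343 of the 34307, and 47 of the 90 belonged to runs of 3 or more.

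**Figure D3:**
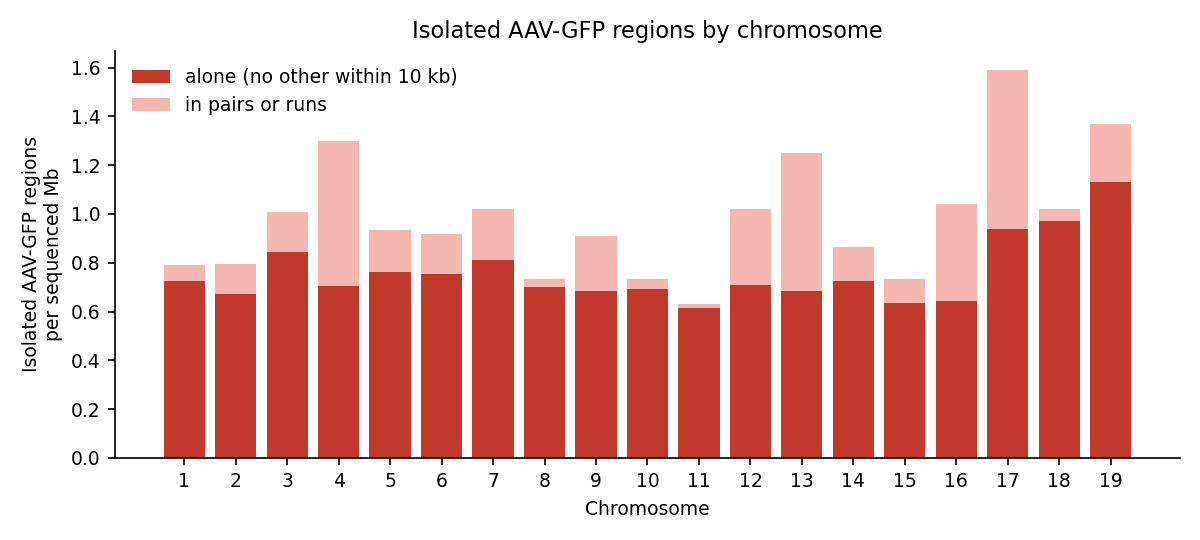
Isolated AAV-GFP regions per sequenced Mb (vertical axis) on each autosome, split into those alone and those in pairs or runs. Solitary regions range from 0.615 to 1.1 per Mb, and chromosomes 4, 13 and 17 reach 1.30, 1.25 and 1.59 per Mb with pairs and runs, against 0.704, 0.683 and 0.938 without them.

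The 5 runs with most members held 102 isolated regions. Because members lie more than 5 kb from every AAV-Cre region and were chained over at most 10 kb, no AAV-Cre region and no other AAV-GFP region can lie inside a run. The run with most members had 27 regions over 20762 bp of chromosome 16, 9969 bp from an assembly gap, and 473524 bp from an AAV-Cre region. Its closest protein-coding gene, the olfactory receptor gene Olfr161, was 328737 bp away. Its regions had a median GC content of 34.4% and −log10 p from 2.13 to 15.4, and 18 of the 27 passed a q-value of 0.05. Of the 10 strongest isolated regions, 4 lay here, among them Peak_1820, Peak_2427 and Peak_2472, with −log10 p of 12.6, 10.9 and 10.8. The local background was high too, with a median of 8.24 scaled fragments and a maximum of 29.1 against the list-wide 4.73, and 1 region of 27 had the list-wide value. The part of this raised background in the calls was not tested.

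Another 3 of the 5 runs, with 23, 18 and 13 regions, lay side by side on chromosome 13 next to Prl2c3 and Prl2c2, members of the prolactin family that are expressed in placenta. The run of 18 reached a start site of Prl2c3, and the closest regions of the runs of 23 and 13 lay 50907 and 89927 bp from a protein-coding start site. The median local background was 6.32, 6.76 and 8.28 scaled fragments, and 9, 8 and 6 regions had summit bases with more than 1 copy. The run of 13 contained Peak_9502, the widest isolated region (1445 bp), with an enrichment of 2.69-fold and a −log10 p of 5.43. Peak_4802 in the run of 23 was 964 bp wide with an enrichment of 3.69-fold, and Peak_5652 in the chromosome 16 run was 898 bp wide. The fifth run, 21 regions over 49812 bp of chromosome 17 (chr17:38513510-38563321), covered Esp34, which encodes a secreted peptide of the pheromone family. It was unlike the other 4 in that its median local background equalled the list-wide 4.73. It lay 1301211 bp from an AAV-Cre region.

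**Figure D4:**
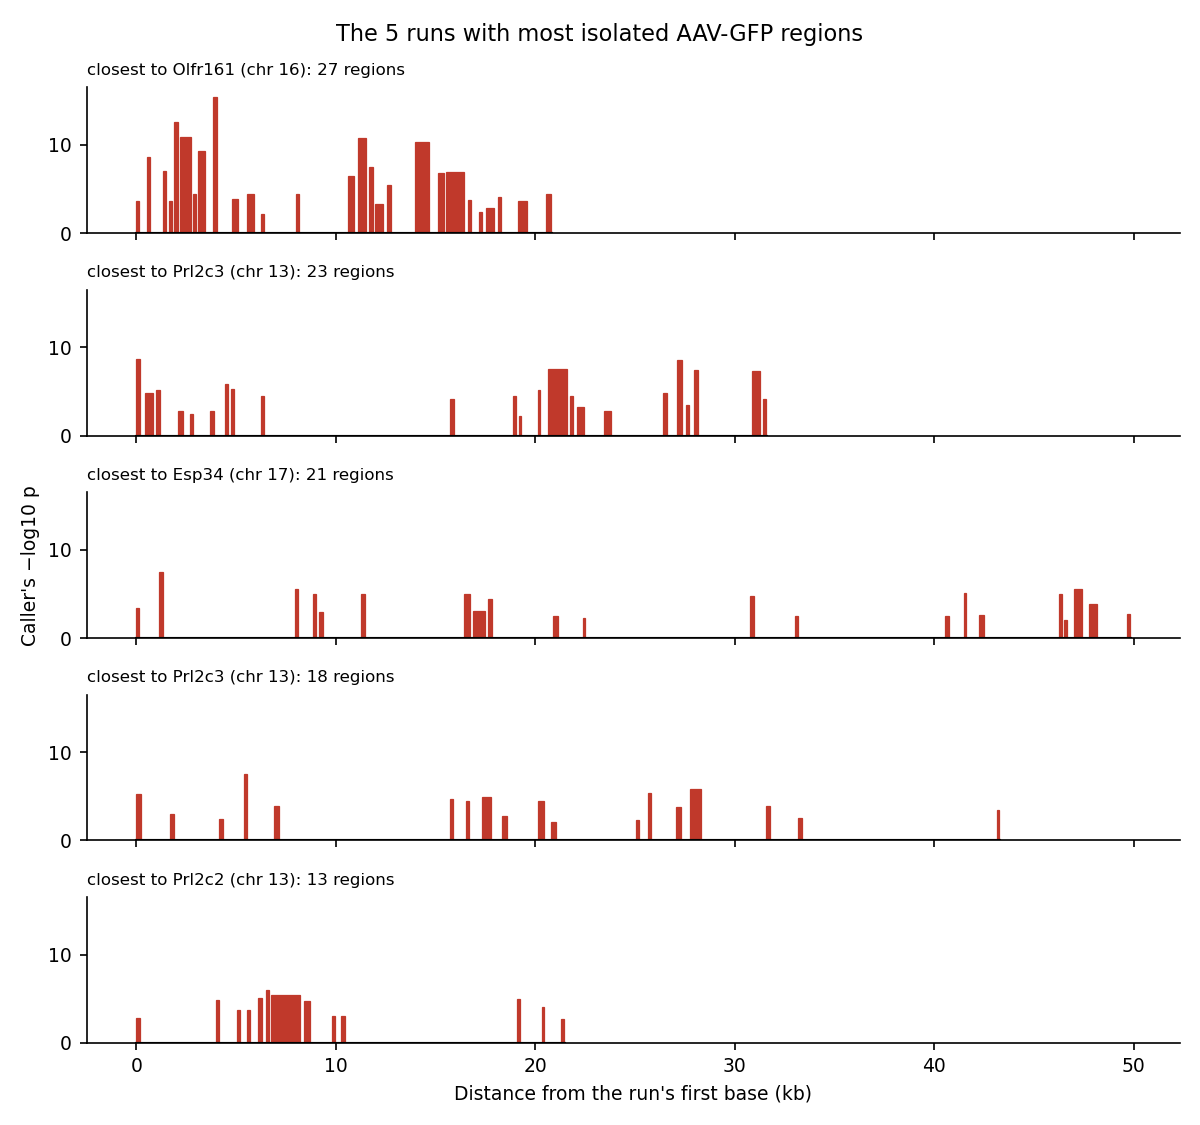
Isolated AAV-GFP regions in the 5 runs with most members, as bars at their distance in kb from the first base of the run (horizontal axis). Each bar is as wide as the region and as high as its −log10 p (vertical axis). The run closest to Olfr161 has 27 regions within 20.8 kb and the tallest bar, 15.4, while the bars of the run at Esp34 lie between 2.03 and 7.49 over 49.8 kb.

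Counted in windows of 1 Mb, a summary added after the data were seen, 12 windows held 10 or more isolated regions each, 313 in all (13.7%). These windows contained 341 AAV-GFP regions, of which 91.8% were isolated, and 52 AAV-Cre regions. The closest protein-coding genes are given for each, chosen after their values were seen. The window at Prl2c3 held 60 isolated regions, and windows with zinc-finger genes on chromosome 4 held 51 (Zfp982, Zfp985 and Zfp988), 17 (Zfp981 and Zfp992) and 14 (Zfp990). A window in the immunoglobulin heavy chain variable segments on chromosome 12 held 35, with Zfp386 as the closest protein-coding gene. The window at Esp34 held 33 and a window on chromosome 16, whose closest protein-coding gene was the distant Olfr161, 31, of which 27 had the small-RNA gene Gm23215 as the closest gene of any kind. The windows at the vomeronasal receptor genes Vmn2r112 and Vmn2r111 and at Vmn1r174 and Vmn1r175 held 21 and 11. Those at the chitinase-like genes Chil4 and Chil3, expressed in macrophages, and at Klra2, of the Ly49 receptors of natural killer cells, held 15 each, and a window of predicted genes around Gm21190 on chromosome 5 held 10.

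**Figure D5:**
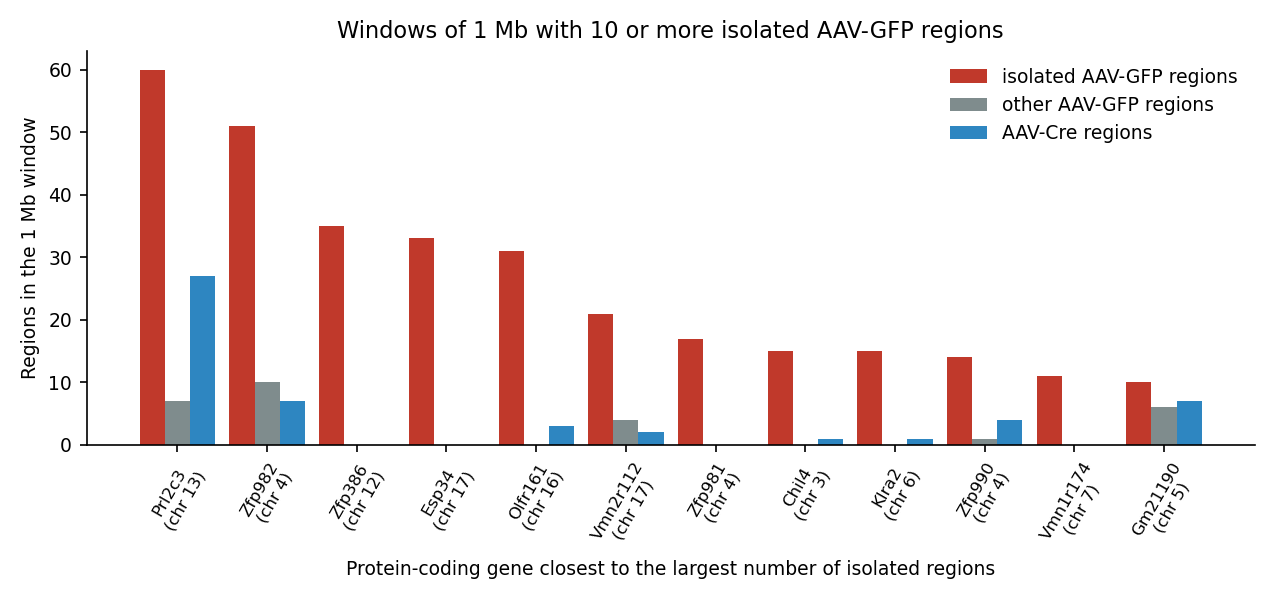
Number of isolated AAV-GFP, other AAV-GFP and AAV-Cre regions (vertical axis) in the 12 windows of 1 Mb with 10 or more isolated regions, each named by the protein-coding gene closest to the largest number of them. The window at Prl2c3 has 60 isolated, 7 other AAV-GFP and 27 AAV-Cre regions; those at Zfp386, Esp34, Zfp981 and Vmn1r174 have isolated regions alone.

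The dense windows differed from the rest of the isolated regions. Inside them the median GC content was 35.3%, outside 44.8%. A q-value of 0.05 or lower was reached by 149 of 313 regions inside, or 47.6%, and by 182 of 1980 outside, or 9.19%. Summit bases with more than 1 copy were found in 27.5% inside and 11.0% outside. Whether the number of copies in these mice is that of the reference was not tested. Of the 331 isolated regions past that q-value, 149 thus lay in these 12 windows.

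A protein-coding gene was counted as having an isolated region when the region lay within 15 kb of one of its start sites, the window used by the study. This held for 454 of 20720 autosomal genes, or 2.19%. Of the 454, 196 (43.2%) had an AAV-Cre region within 15 kb as well, against 43.1% of all genes. The rule bars an AAV-Cre region within 5 kb of an isolated region, which lowers the share among the 454 by construction. These shares are therefore not like for like, and no conclusion is drawn from them. The remaining 258, or 1.25% of all genes, had an isolated region and no AAV-Cre region in the window. Within 1 kb of a start site, 52 genes, or 0.251%, had an isolated region. A gene can carry the region of a close neighbour, and start sites of overlapping genes share regions.

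Gene groups were counted against the background of 2.19%. None of 49 autosomal developmental regulators had an isolated region within 15 kb (0, upper limit of the interval 7.27%), and 48 of them had an AAV-Cre region there. None of 39 Hox genes had an isolated region, and all 39 had an AAV-Cre region. An AAV-Cre region bars an isolated region within 5 kb of it, so the counts of these lists are partly set by the rule. The counts were also 0 of 49 hepatocyte genes (upper limit 7.27%), 0 of 68 autophagy genes (5.35%) and 0 of 9 genes of the study's account (29.9%). They were 0 of 11 genes for Kdm6 demethylases and Polycomb repressive complex 2 (25.9%) and 0 of 372 solute carriers (1.02%). Defensins had 0 of 64 (5.66%) and Fc gamma receptors 0 of 5 (43.4%). Among the lists with 0, only the limit of the solute carriers lay below 2.19%. Counted as the closest protein-coding gene, autophagy genes had 0.392% of the isolated regions, against 0.227% of all AAV-GFP regions. The shares were also larger for hepatocyte genes (0.131% against 0.0262%) and defensins (0.0872% against 0.0350%). In the other lists with 0 they were smaller. Cytochrome P450 genes had 1 of 100, Cyp4f18, at 6864 bp. Major urinary protein genes had 2 of 22, Mup9 at 7343 bp and Mup19 at 12571 bp, the latter with an AAV-Cre region at 1876 bp.

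The chemosensory receptor and zinc-finger families had more. Of 1127 olfactory receptor genes, 45 (3.99%, interval 3.0 to 5.30) had an isolated region, 39 of them with no AAV-Cre region in the window, which 8.25% of the family had. Of 327 vomeronasal receptor genes, 13 (3.98%, interval 2.34 to 6.68) had one, 12 with no AAV-Cre region, which 3.06% of the family had. Of 388 zinc-finger genes named Zfp, 14 (3.61%, interval 2.16 to 5.96) had one, 13 with no AAV-Cre region, which 30.7% of the family had. Most olfactory and vomeronasal receptor genes thus had no AAV-Cre region whether or not an isolated region was near. The lower end of the interval was below 2.19% for the zinc-finger genes. The intervals treat genes as independent, but the 45 olfactory receptor genes shared 35 isolated regions, and 37 regions each lay at the 13 vomeronasal receptor and 14 Zfp genes. Counted by region, olfactory receptor genes were the closest protein-coding gene to 79 isolated regions (3.45%, against 0.510% of all AAV-GFP regions), vomeronasal receptor genes to 70 (3.05% against 0.271%) and Zfp genes to 127 (5.54% against 1.58%). Of the 79, 31 lay in 1 window of chromosome 16, where a run of 27 was 328737 bp from Olfr161. Of the 127, 35 lay in the immunoglobulin window of chromosome 12, at least 48268 bp from Zfp386. Of the 70, 21 lay in the window at Vmn2r111 and Vmn2r112. Large parts of these counts thus came from single windows, some far from the gene named. Of 67 protocadherin genes, 25 (37.3%) had an isolated region, but 10 regions accounted for them all, so that 1 region was counted for several genes, and 50 of the 67 had an AAV-Cre region. Of 23 cadherin genes, Cdh17, Cdh18 and Cdh8 had one, at 641, 1404 and 9521 bp, and Cdh18 and Cdh8 also had an AAV-Cre region, at 0 and 674 bp.

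The strongest isolated regions within 1 kb of a start site are described by gene. Peak_7006 lay 174 bp and Peak_7007 807 bp from the start site of Vmn1r235, each with an enrichment of 3.42-fold, and Peak_7007 was the widest at a start site, at 1023 bp. Start sites of Vmn1r235 also had an AAV-Cre region at 4813 bp and an AAV-GFP region that was not isolated at 538 bp. Peak_8656, 891 bp wide, lay 154 bp from Olfr209 with an enrichment of 3.29-fold, and Peak_11086 covered its start site. Peak_8861 (Zfp982, 944 bp), Peak_8909 (Vmn2r9, 765 bp), Peak_10603 (Esp34, 788 bp), Peak_11373 (Vmn2r30, 325 bp) and Peak_14222 (Olfr617, 157 bp) had GC contents from 22.3 to 43.0%. A second kind was rich in GC: Peak_8623 at Gm3667 (73.7%), Peak_13835 at Gm8281 (72.2%) and Peak_15252 at Gm7102 (70.6%), all predicted genes with flanks of 42.1 to 43.5%. Peak_10210 lay 35 bp from Krtap5-3, a keratin-associated protein gene, and Peak_10287 lay 130 bp from Pcdhga3, a protocadherin gene. An AAV-Cre region lay 4923 bp from a start site of Pcdhga3.

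Of the 52 genes with an isolated region within 1 kb, 37 had no AAV-Cre region within 15 kb. Over all 20720 autosomal protein-coding genes, 8926, or 43.1%, had one, and the others had none. The rule bars AAV-Cre regions within 5 kb of an isolated region, which raises the count of 37 by construction. Some genes outside the families are named here after their values were seen. An isolated region covered a start site of Hspa1a, the inducible heat-shock protein of the Hsp70 family, with the closest AAV-Cre region 47744 bp away, and another lay 2 bp from Dcn, which encodes the matrix proteoglycan decorin, with the closest 210474 bp away. At Ehf and Vav3 an isolated region lay 161 and 445 bp from a start site, but an AAV-Cre region covered another start site of each gene. At Mef2c, a transcription factor of muscle and brain, the isolated region lay 630 bp and the AAV-Cre region 6133 bp from a start site. The region at Dcn was weak and narrow, with an enrichment of 2.07-fold, a −log10 p of 2.03, a −log10 q of 0 and a width of 129 bp. No region at the genes of this paragraph was among the 15 strongest within 1 kb of a start site. None of these single regions has a replicate value.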

How the data were processed

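H3K27-me3 ChIP-seq of liver was processed by the authors with the AQUAS pipeline. Reads were mapped to mm10, with BWA 0.7.13, SAMtools 1.2 and Picard 1.126 named in the submitters' processing notes, and peaks were called with MACS against pooled input DNA. Each of the 2 deposited lists was made from both mice of a group. The deposited lists give a display score, a fold enrichment ratio, and −log10 p and −log10 q values per peak, all computed by the authors' peak caller. The score was not used. Depth is unknown.

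Distances, GC content, CpG, soft-masked bases, tandem repeats, and copies of the 31 summit bases on either strand were computed in Python 3.11.15 (numpy 2.4.6, pandas 2.3.3) from RefSeq GRCm38.p6 and GENCODE M21 basic transcripts. The background rate behind each peak was solved from its fold and p-value under a Poisson model, and could not be solved in 4 isolated regions and 947 AAV-GFP autosomal regions in all. Shares have Wilson 95% intervals and medians binomial order-statistic intervals. No test was made, because each group has 1 pooled list. Functions were tested on simulated data.

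The members and gene lists were chosen with earlier results of these data known. Regions named are the 10 strongest, 5 widest and 5 farthest from AAV-Cre, the 5 runs with most members, the 15 strongest within 1 kb of a start site, and up to 5 genes per list. Some items that this rule selects are not reported here. Alternatives were other distances, thresholds, widths, merging, chromosomes, start-site windows and summits with 1 copy.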

Additional observations from a re-analysis of the deposited data

How the results depend on the processing

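The number of isolated regions stayed within 1.5 times of 2293 with a distance of over 1 kb or 10 kb, with AAV-Cre regions of q 0.05 or lower, with merging, with all chromosomes and with summit bases that occur 1 time. It moved to 1358 at over 50 kb, to 331 with AAV-GFP regions of q 0.05 or lower, to 192 with a −log10 p of at least 5 and to 86 with a width of at least 300 bp. Under these 3 thresholds the isolated share of the equally filtered list was 2.06, 1.69 and 0.676%, against 6.68%. The median width, 153 bp, moved to 159, 160 and 356 bp under the last 3 settings. The median GC content, 43.4%, moved to 44.2% at over 1 kb, 41.6% at over 50 kb, 39.2% with q 0.05 or lower, 37.7% with a −log10 p of at least 5, 36.6% with a width of at least 300 bp and 44.1% with merging. Over all autosomal AAV-GFP regions these last thresholds moved it the other way, from 50.3% to 52.8% with q 0.05, 53.7% with the −log10 p and 52.7% with the width. The share with a protein-coding start site within 15 kb, 21.5%, moved to 26.0, 18.4 and 18.5% at over 1, 10 and 50 kb, to 32.9% with q 0.05 or lower, 34.4% with a −log10 p of at least 5 and 27.9% with a width of at least 300 bp. With start-site windows of 1, 5 and 50 kb it was 2.53, 8.07 and 42.5%, and with all annotated genes 46.7%, by construction. The masked share, 27.2%, moved to 26.5, 27.3 and 28.9% at over 1, 10 and 50 kb, to 25.8% with AAV-GFP and 26.8% with AAV-Cre regions of q 0.05 or lower, to 26.4% with the −log10 p, 20.6% with the width, 26.8% with merging and 22.4% with summit bases that occur 1 time. Without the 12 windows of 1 Mb with 10 or more isolated regions, a setting chosen after seeing the data, the width was 150 bp, the GC content 44.8%, the start-site share 19.9% and the masked share 28%, in 1980 regions. Except where a setting changes the window or the regions by its construction, the cause was not tested. No paired analysis was possible because the lists hold no value per mouse, and for the same reason leaving out each mouse was not run. Depth could not be read from the lists.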

Other observations

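Some gene bodies held several isolated regions. Chil4, Vmn2r112 and Zfp985, genes of 18, 19.9 and 31.9 kb, held 7 each, Esp34 held 6 within 6.43 kb and Zfp982 6 within 21.1 kb. Ifi202b, an interferon-inducible gene of 20.2 kb, held 5, and its closest AAV-Cre region lay 518814 bp from a start site. Dlg2, a synaptic scaffold gene of 1973 kb, also held 5. These genes were chosen after their values were seen, and a long gene has more room for a region than a short gene.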
